A study of Mus musculus with 6 samples.

Results

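The 10 genes described here encode 5 S100 calcium-binding proteins (*S100a4*, *S100a6*, *S100a10*, *S100a11* and *S100a13*) and 5 annexins (*Anxa1*, *Anxa2*, *Anxa5*, *Anxa6* and *Anxa7*). They were picked by gene symbol from the 24420 genes of the count table. The choice of members was made with the genotype differences of these same samples known, so those differences were selected on. They are given as a description. No p-value of a member is printed, and members counted or named under a threshold are part of that description. RNA was sequenced from Treg cells of female C57BL/6 mice that carried *Foxp3* YFP-Cre on 1 X chromosome. Mice of the OGT-sufficient group (3 samples) were heterozygous for the floxed *Ogt* allele (*Ogt*wt/fl), those of the OGT-deficient group (3 samples) were homozygous for it (*Ogt*fl/fl), and both were *Foxp3*YFP-Cre/wt, so every mouse carried the Cre and at least 1 floxed *Ogt* allele. The labels call these groups WT and KO, give lymph nodes as the tissue and name no treatment. The methods give 6 to 12 weeks as the general age of mice other than the young males, without an age for these females. Cre is driven by *Foxp3*, and the sequenced cells came from a YFP sort after bead enrichment for CD4. The OGT-deficient females also hold YFP-negative Treg cells that kept OGT, which were not sequenced here.

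S100 proteins are small proteins with a pair of EF-hand calcium-binding loops. On binding calcium most of them open a surface that grips partner proteins of the cytoskeleton and the membrane. Annexins bind negatively charged phospholipids when calcium rises and link membranes to actin. The families meet in complexes, of which the pairs of S100A10 with annexin A2 and of S100A11 with annexin A1 are the best known. In T cells *S100a4*, *S100a6*, *S100a10* and *Anxa2* are known as transcripts that are higher in effector and memory cells than in resting cells. OGT is the enzyme that attaches O-GlcNAc to serines and threonines of nuclear and cytosolic proteins.

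Levels are given as CPM, the count as a share of the library size, the latter scaled with edgeR's TMM method. The total count was between 3375454 and 4103552 per sample, and 3 counts, the limit below which a gene was taken as not detectable, were between 0.759 and 0.808 CPM. This limit covers counting error only. The ribosomal RNA gene *Rn45s* took 24.2% to 37.1% of the counts. As a check of the labels, *Ogt* itself had counts of 562, 632 and 957 in OGT-sufficient and of 327, 266 and 368 in OGT-deficient samples, with no overlap. OGT-sufficient replicate 3 stood apart from the other libraries, with 18346 genes at 1 count or more against 14412 to 15197 elsewhere. All 8 Treg markers were detected, with a summed level of 2096 CPM in OGT-sufficient replicate 3 and of 2779 to 3119 CPM in the other samples. The 12 macrophage markers were also all detected, and their summed level was 1798 to 3807 CPM in the OGT-sufficient and 1287 to 5557 CPM in the OGT-deficient samples, so macrophage transcripts were present in every library. The summed B cell and erythroid markers were 68.7 to 212 and 212 to 838 CPM, both highest in OGT-sufficient replicate 3. In such bulk RNA, fewer cells of a type and less RNA per cell cannot be told apart. Each sample description carries a number of its own, but the labels do not say what it stands for. They also do not say whether the 3 samples of a group come from 3 mice, so the spread between them may be in part technical.

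All 10 members were detected, with at least 10 counts in each of the 6 samples, and all 10 passed the low-count filter. The S100 members split by gene: the OGT-deficient samples held less *S100a4*, *S100a6* and *S100a11* without overlap between the groups, while the groups overlapped for *S100a10* and for *S100a13*, whose mean was higher in the OGT-deficient samples. Among the annexins no member was free of overlap between the groups. In edgeR's quasi-likelihood test across the 10949 genes tested, 0 of the 10 members passed an FDR of 0.1 in either direction, where 0.0183% of all genes were called lower and 0.00913% higher. At that FDR, DESeq2 called 1 member, *S100a4*, and edgeR's exact test called 2, *S100a4* and *S100a6*, all lower. At an unadjusted p under 0.05 the quasi-likelihood test gave 4 members as lower (*S100a4*, *S100a6*, *S100a11* and *Anxa1*) and 0 as higher, against 4.01% and 3.09% of all genes. Groups did not overlap for 3 members, all lower, against 7.48% of all genes lower and 5.72% higher. Because the members were chosen with this contrast known, these shares are a description. Members had a median log2 fold change of -0.25, and all genes tested had -0.02.

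**Figure D1:**
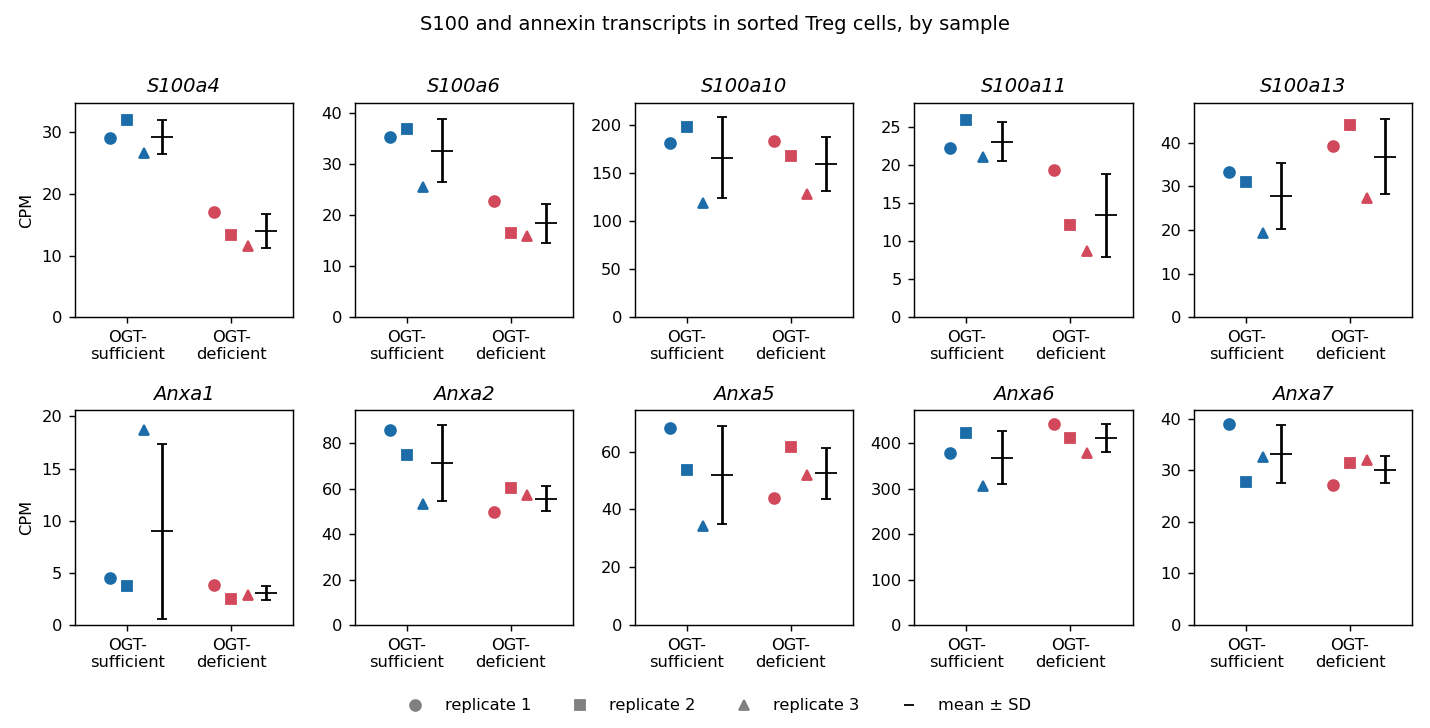
CPM of each member in the 6 samples (symbols, shaped by replicate number, which does not pair the samples), with the mean ± SD of each group of 3 in black and a linear axis from 0 in every panel. The OGT-deficient samples lie below all OGT-sufficient samples for S100a4, S100a6 and S100a11, and the mean of Anxa1 in the OGT-sufficient group rests on replicate 3 at 18.7 CPM.

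*S100a4*, whose protein binds non-muscle myosin and is known from motile and activated cells, had counts of 109, 119 and 101 in OGT-sufficient and of 66, 53 and 44 in OGT-deficient samples. That is 29.1, 32.1 and 26.6 CPM against 17.0, 13.4 and 11.5 CPM. All 3 OGT-deficient values were under the lowest OGT-sufficient value. The group levels were 29.3 ± 2.74 and 13.99 ± 2.79 CPM (SD, n = 3 each), and the log2 fold change was -1.06 ± 0.19 (SE). The spread of the OGT-sufficient samples, a coefficient of variation of 9.35%, was no larger than the 9.55% that counting alone gives at this count. Over 15 alternative fits the log2 fold change of *S100a4* stayed between -1.23 and -0.91.

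*S100a6* encodes calcyclin, which binds the ubiquitin ligase component CACYBP. It had 35.3, 36.9 and 25.5 CPM in the OGT-sufficient and 22.7, 16.4 and 15.99 CPM in the OGT-deficient samples. The lowest OGT-sufficient sample, replicate 3, was close to the highest OGT-deficient one. *S100a6* had a log2 fold change of -0.82 ± 0.21 (SE), and -0.96 without OGT-sufficient replicate 3.

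*S100a11*, the partner of annexin A1, has a processed pseudogene whose reads could be split with it. It had 22.2, 25.9 and 21.1 CPM in the OGT-sufficient and 19.3, 12.1 and 8.65 CPM in the OGT-deficient samples. Here the OGT-deficient samples differed among themselves, with a coefficient of variation of 40.8% against 13.9% from counting alone, and replicate 1 was within 2 CPM of the lowest OGT-sufficient sample. The log2 fold change was -0.78 ± 0.27 (SE), and leaving out 1 sample at a time moved it between -1.14 and -0.51. The range came from the OGT-deficient side: it was -1.14 without replicate 1 and -0.51 without replicate 3.

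*S100a10* was the most abundant S100 transcript. Its protein is unusual in the family in that its EF hands have lost calcium binding, and it anchors annexin A2 to membranes. Its level was 181, 199 and 119 CPM in the OGT-sufficient and 183, 168 and 128 CPM in the OGT-deficient samples, so the ranges lay over each other. The log2 fold change was -0.06 ± 0.21 (SE), and its sign changed between fits, with a range of -0.24 to 0.13.

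*S100a13*, whose protein takes part in the release of FGF1 and IL-1 alpha, had 33.4, 31.0 and 19.2 CPM in the OGT-sufficient and 39.2, 44.0 and 27.3 CPM in the OGT-deficient samples. The groups overlapped through OGT-deficient replicate 3, which lay below 2 of the OGT-sufficient samples. Its log2 fold change of 0.40 ± 0.24 (SE) was positive in all 15 alternative fits and became 0.20 without OGT-sufficient replicate 3. OGT-sufficient replicate 3 was the lowest sample of its group for 8 of the 10 members, the exceptions being *Anxa1* and *Anxa7*.

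Shares within a sample do not depend on the library scaling. *S100a4* made up 9.66%, 9.88% and 12.6% of the summed counts of the 5 S100 members in OGT-sufficient and 6.04%, 5.28% and 6.02% in OGT-deficient samples. *S100a13* made up 11.1%, 9.54% and 9.09%, against 13.9%, 17.3% and 14.2%. The groups did not overlap for either share, although they overlapped for the CPM of *S100a13*. The counts of *S100a4* per count of *S100a13* were 0.872, 1.03 and 1.38 in the OGT-sufficient and 0.434, 0.305 and 0.423 in the OGT-deficient samples. So *S100a4* had more counts than *S100a13* in 2 of the 3 OGT-sufficient and in 0 of the 3 OGT-deficient samples. *S100a10* held 56.3% to 61.2% of the S100 counts in the OGT-sufficient and 65.1% to 66.9% in the OGT-deficient samples. A share can move because another member of the sum moves, and these were chosen after the values were seen.

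**Figure D2:**
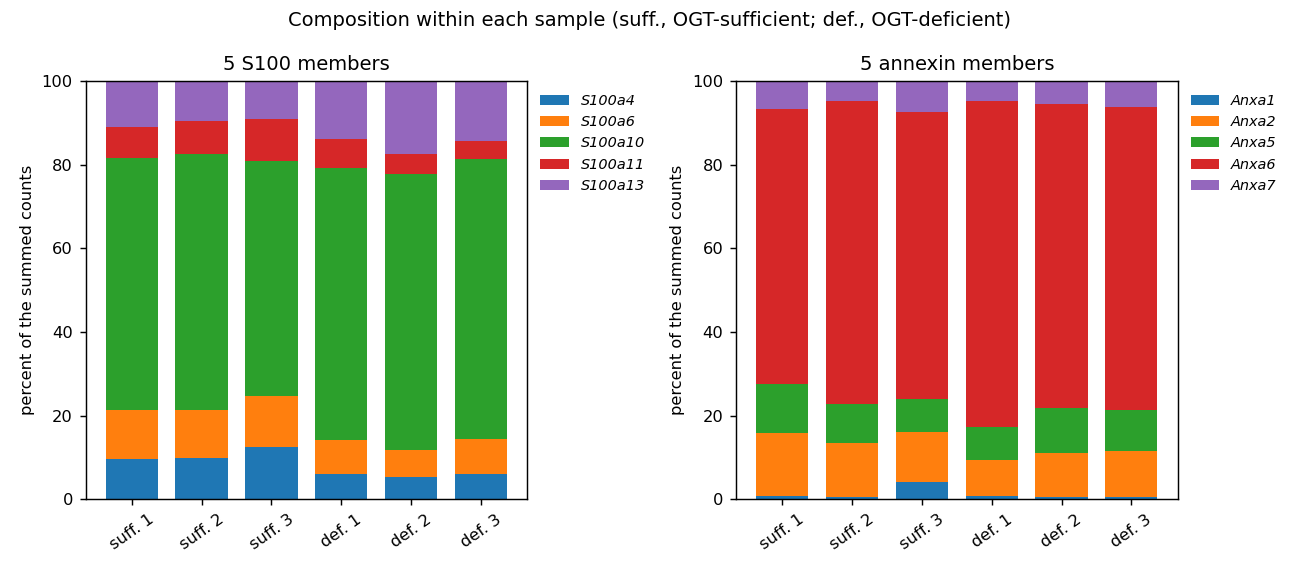
Percent of the summed counts of the 5 S100 members (left) and of the 5 annexin members (right) that each gene took in each of the 6 samples. The stacked bars add to 100%. S100a10 took 56.3% to 66.9% of the S100 counts and Anxa6 65.6% to 78.0% of the annexin counts.

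*Anxa6* was the most abundant annexin transcript. Its protein has a longer core than other annexins and binds membranes at separate sites. Its level was 377, 421 and 306 CPM in the OGT-sufficient and 442, 412 and 379 CPM in the OGT-deficient samples. The log2 fold change was 0.16 ± 0.14 (SE), and it ranged from 0.05 to 0.30 over the alternative fits. Across the 6 samples the log2 level of *Anxa6* followed the summed Treg markers with a Pearson r of 0.968, or 0.875 over 5 samples without OGT-sufficient replicate 3. The r of *Anxa6* with the summed neutrophil markers other than S100 genes was -0.948, or -0.742 over those 5 samples. *S100a13* and *S100a10* had an r of 0.786 and 0.776 with the summed Treg markers, or 0.0945 and 0.510 over those 5 samples. These points share their library and scaling, so the values are a description.

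*Anxa2* links membranes to actin and, with S100A10, binds plasminogen at the cell surface. It had 86.0, 74.9 and 53.2 CPM in the OGT-sufficient and 49.8, 60.2 and 57.1 CPM in the OGT-deficient samples, and OGT-sufficient replicate 3 lay inside the range of the other group. The log2 fold change was -0.36 ± 0.18 (SE), -0.52 without OGT-sufficient replicate 3 and -0.16 without OGT-sufficient replicate 1. Per count of *S100a10*, *Anxa2* had 0.474, 0.377 and 0.447 counts in the OGT-sufficient and 0.271, 0.358 and 0.446 in the OGT-deficient samples, so the ratio of these partners overlapped between the groups.

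*Anxa5*, whose protein binds phosphatidylserine and is used as a probe of dying cells, had 68.1, 53.6 and 34.2 CPM in the OGT-sufficient and 43.9, 61.7 and 51.9 CPM in the OGT-deficient samples. The spread inside the OGT-sufficient group was larger than the difference between the group means. The log2 fold change was 0.01 ± 0.24 (SE) and ranged from -0.21 to 0.29 over the alternative fits, with both ends from leaving out an OGT-sufficient sample.

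*Anxa2* and *Anxa5* deviated from their group means together, with a Pearson r of 0.989 over the 6 samples. Macrophages express both genes, and the deviations of *Anxa2* and *Anxa5* had an r of 0.720 and 0.710 with those of the summed macrophage markers. The link was not particular to that list: the r was 0.677 and 0.612 with the summed Treg markers, and -0.666 and -0.597 with the summed neutrophil markers other than S100 genes. The summed marker level was 3807, 3382 and 1798 CPM in the OGT-sufficient and 1287, 4644 and 5557 CPM in the OGT-deficient samples. This sum was at its minimum in OGT-deficient replicate 1, which also had the least *Anxa2*. With the level of the macrophage list as a covariate, the log2 fold change was -0.39 for *Anxa2* and -0.03 for *Anxa5*, and -1.05 for *S100a4*. How much of these transcripts came from macrophages was not tested.

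*Anxa7*, or synexin, binds sorcin and takes part in vesicle fusion. It had 39.0, 27.7 and 32.6 CPM in the OGT-sufficient and 27.1, 31.4 and 32.0 CPM in the OGT-deficient samples, a log2 fold change of -0.14 ± 0.16 (SE). The coefficient of variation of *Anxa7* in the OGT-deficient samples, 8.84%, was no larger than the 9.25% from counting alone. In the OGT-sufficient samples it was larger, at 17.0% against 8.97%.

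*Anxa1* was the member with the fewest counts and the one that a single sample decided. Annexin A1 is induced by glucocorticoids, limits inflammation through formyl peptide receptors and is abundant in neutrophils. *Anxa1* had counts of 17, 14 and 71 in OGT-sufficient and of 15, 10 and 11 in libraries from OGT-deficient cells. In CPM this is 4.54, 3.77 and 18.7 CPM against 3.87, 2.53 and 2.88 CPM. Its log2 fold change of -1.53 ± 0.62 (SE) became -0.41 ± 0.38 (SE) without OGT-sufficient replicate 3.

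The neutrophil genes of the S100 family had the same sample on top. *S100a8* and *S100a9* encode the subunits of calprotectin. *S100a8* had counts of 12, 7 and 92 in OGT-sufficient and of 8, 2 and 5 in OGT-deficient samples, and *S100a9* had 34, 22 and 292 against 16, 19 and 14. In 5 of the 6 samples *S100a8* had 0.315 to 0.50 counts per count of *S100a9*, and it had 0.105 in OGT-deficient replicate 2, where its count was 2. *S100a9* had a log2 fold change of -2.86 ± 0.92 (SE) with an adjusted p of 0.565 in edgeR's quasi-likelihood test, which was -0.82 ± 0.33 (SE) without OGT-sufficient replicate 3. The summed level of the 8 neutrophil markers, these genes included, was 48.4, 21.0 and 315 CPM in the OGT-sufficient samples and between 14.2 and 18.7 CPM in the OGT-deficient samples. Of these 8 markers 4 were tested (*S100a9*, *Ngp*, *Ltf* and *Mpo*), and 4 were lower at an unadjusted p under 0.05, against 4.01% of all genes. DESeq2 gave 3, without *Mpo*. With OGT-sufficient replicate 3 left out *S100a9* alone of the 4 stayed under that p. Without the S100 genes the sum was 36.1, 13.2 and 214 CPM against 7.997 to 13.4 CPM. *Anxa1* had 0.243 counts per count of *S100a9* in OGT-sufficient replicate 3 and 0.50 to 0.938 in the other samples. The part of neutrophil RNA in the *Anxa1* value was not tested.

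**Figure D3:**
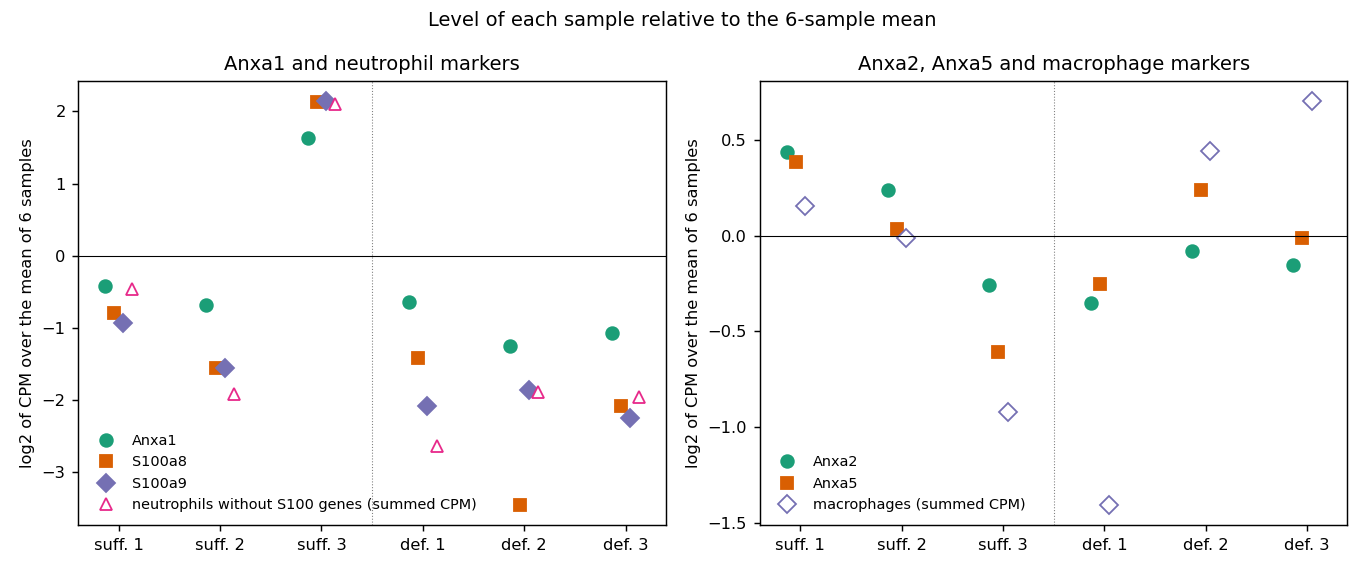
Level of each sample as the log2 of its CPM over the mean of the 6 samples, for Anxa1, S100a8, S100a9 and the summed neutrophil markers other than S100 genes (left) and for Anxa2, Anxa5 and the summed macrophage markers (right). OGT-sufficient replicate 3 is the highest sample for all 4 on the left, and OGT-deficient replicate 1 is the lowest for Anxa2 and for the macrophage sum on the right.

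Levels can be compared between genes only per length, as CPM per kilobase of exon. The length used joins all annotated exons of a gene, 1.367 kb for *S100a6* and 5.991 kb for *Anxa7*. It can exceed that of the transcript expressed, so the order depends in part on the annotation. On this scale *S100a10* (135 ± 26.6, SD over n = 6 samples) and *Anxa6* (133 ± 16.4) were highest and could not be ordered, since each was above the other in 3 samples. Both stood above all other members in all 6 samples. *S100a13* at 45.2 ± 12.3, *S100a4* at 37.0 ± 14.9, *S100a11* at 35.6 ± 12.7 and *Anxa5* at 29.4 ± 6.85 CPM per kilobase followed, and the range of each overlapped that of the next. The order of these 4 over all samples was that of neither group. In OGT-sufficient samples the mean levels were 50.1 for *S100a4*, 45.1 for *S100a11*, 38.97 for *S100a13* and 29.3 CPM per kilobase for *Anxa5*. In OGT-deficient samples *S100a13* was first at 51.5 CPM per kilobase, before *Anxa5* at 29.5, *S100a11* at 26.2 and *S100a4* at 23.95. *S100a6* at 18.6 ± 6.59 and *Anxa2* at 17.0 ± 3.76 CPM per kilobase did not differ beyond their spread. *Anxa7* at 5.28 ± 0.714 and *Anxa1* at 2.08 ± 2.14 CPM per kilobase were lowest, and *Anxa7* was above *Anxa1* in 5 of 6 samples.

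The S100 members lie in a pair of clusters on mouse chromosome 3, given here on GRCm38, the assembly behind the mm10 build of the submitters' processing notes, with GENCODE M21 genes. *S100a13* (90514435 to 90524581), *S100a4* (90603771 to 90606045) and *S100a6* (90612882 to 90624181) belong to the run of 185 kb from *S100a1* to *S100a9*. *S100a11* (93520488 to 93526287) and *S100a10* (93555080 to 93564643) start 34.6 kb apart, 2.91 Mb further along. Neighbours did not always have like values. *S100a4* and *S100a6* start 9.11 kb apart and had log2 fold changes of -1.06 and -0.82, while *S100a13* in the same cluster had 0.40. In the other cluster *S100a11* had -0.78 and its neighbour *S100a10* had -0.06. *S100a1*, which starts 43 bases from *S100a13* on the opposite strand, had a log2 fold change of 0.60 ± 0.42 (SE), with at most 18 counts per sample. Whether the counting used strand is not given in the sources used here.

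Several genes of the first cluster had next to no counts. *S100a2*, *S100a3* and *S100a5* had at most 2 counts in any sample, *S100a7a* at most 1, and *S100a14* and *S100a16* had none. Within 250 kb of the *S100a4* start, 7 genes outside the family are in the table. Of these 4 were tested (*Ints3*, *Ilf2*, *Snapin* and *Chtop*), and 0 passed an unadjusted p of 0.05, with log2 fold changes between -0.15 and 0.09. Of the 5 family genes tested there, 3 were lower at that p, as were 4.01% of all genes. These were *S100a9* and the members *S100a4* and *S100a6*, which had been chosen with this contrast known. The log2 fold change of *S100a9* was -2.86, and -0.82 without OGT-sufficient replicate 3. The contrast between family genes and neighbours is therefore a description, and a difference particular to the cluster was not tested.

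**Figure D4:**
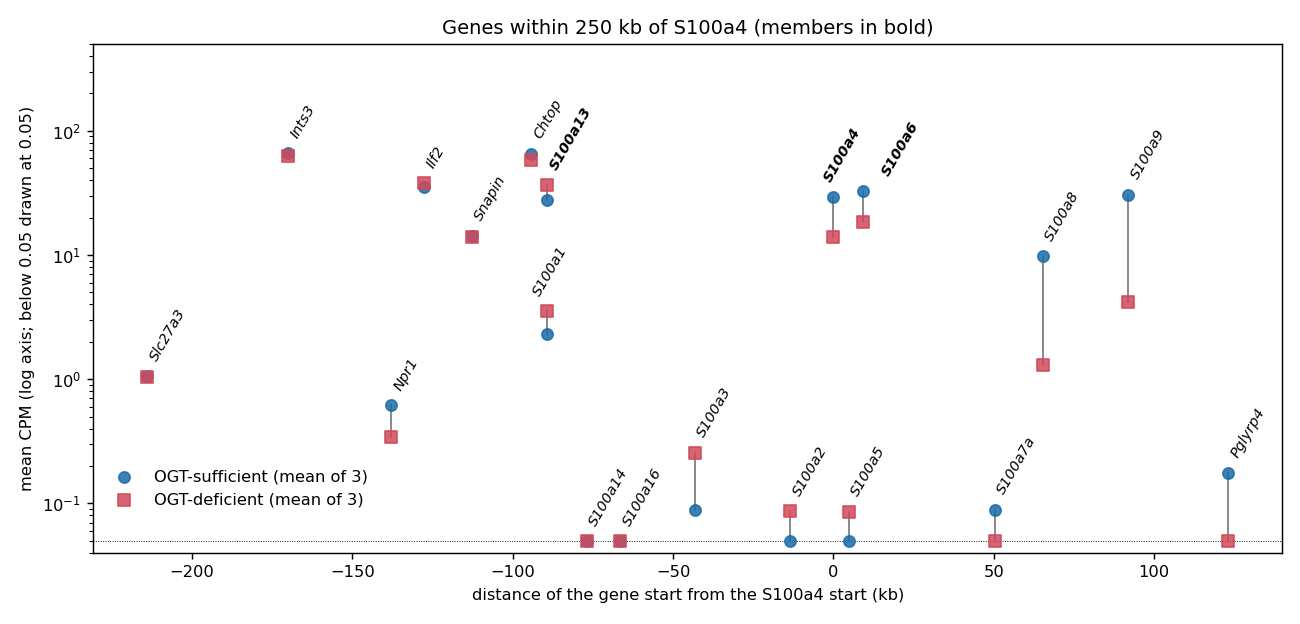
Mean CPM (log axis) of the 3 OGT-sufficient and the 3 OGT-deficient samples for the genes within 250 kb of S100a4, by the distance of each gene start from that of S100a4; values below 0.05 CPM are drawn at 0.05. S100a4 and S100a6 separate downwards in the OGT-deficient samples, S100a13 lies on the other side, and Ints3, Ilf2, Snapin and Chtop have log2 fold changes between -0.15 and 0.09.

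The sequences just upstream of the 3 members without overlap between the groups are shown so that they can be compared. They come from RefSeq (GRCm38.p6, all on the plus strand), which had windows for 8 of the 10 members, and run 5′ to 3′ from 250 bases before the RefSeq start to the last base before any annotated exon. They cover chr3:90603520-90603769 for *S100a4*, chr3:90612644-90612881 for *S100a6* and chr3:93520246-93520487 for *S100a11*. Capitals mark matches to the motifs named after them.

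S100a4: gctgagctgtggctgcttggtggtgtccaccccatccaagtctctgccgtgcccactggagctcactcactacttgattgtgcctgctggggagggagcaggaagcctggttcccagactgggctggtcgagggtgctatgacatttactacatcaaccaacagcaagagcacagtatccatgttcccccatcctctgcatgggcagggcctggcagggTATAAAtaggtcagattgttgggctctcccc

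S100a6: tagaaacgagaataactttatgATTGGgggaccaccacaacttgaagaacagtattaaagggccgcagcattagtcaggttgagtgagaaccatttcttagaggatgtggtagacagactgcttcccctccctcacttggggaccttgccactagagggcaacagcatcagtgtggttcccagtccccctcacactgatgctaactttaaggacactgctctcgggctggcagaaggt

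S100a11: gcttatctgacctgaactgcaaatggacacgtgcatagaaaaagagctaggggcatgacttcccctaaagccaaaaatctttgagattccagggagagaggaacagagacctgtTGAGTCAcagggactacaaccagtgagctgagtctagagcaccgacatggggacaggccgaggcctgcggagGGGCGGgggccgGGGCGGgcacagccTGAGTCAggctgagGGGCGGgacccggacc

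Both strands of the 250 bases upstream were searched. The TATA box, written TATAAA, occurred 31 bases before the start of *S100a4* and in the windows of *Anxa1* and *Anxa2*, and 12.4% of the 32851 RefSeq windows hold it. The CCAAT box, written CCAAT, occurred in *S100a6* on the opposite strand, and 33.8% of windows hold it. *S100a11* held the GC box, written GGGCGG, at 3 places and the AP-1 motif, written TGANTCA, at 2. Of all windows 32.7% and 6.75% hold these motifs. *Anxa2* held both as well, and *Anxa7* the GC box. The motif of STAT factors, TTCNNNGAA, occurred in none of the 9 windows of the 8 members and in 7.02% of all windows. The 3 S100 windows shared none of the motifs searched. A match is a description of letters and not a site.

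The other 18 listed genes of the families are accounted for as follows. Of these, 3 had no count (*S100a14*, *S100a16* and *Anxa8*) and 5 were tested. *S100a9* is given above, and the other 4 tested were *S100a1*, *Anxa3*, *Anxa4* and *Anxa11*, with log2 fold changes of 0.60, 0.56, 0.44 and 0.20 and standard errors of 0.42, 0.42, 0.28 and 0.18. At an FDR of 0.1 the quasi-likelihood test, DESeq2 and edgeR's exact test each called 0 of the 5. At an unadjusted p under 0.05 each called 1 lower, *S100a9*, and 0 higher. In the quasi-likelihood test 4.01% of all genes were lower and 3.09% higher at that p. *Anxa9* had between 5 and 10 counts per sample, and *S100b*, *S100g*, *S100z*, *Anxa10* and *Anxa13* had at most 3. *S100a2*, with 1 count in all, is the only further gene of these families in the table.

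**Figure D5:**
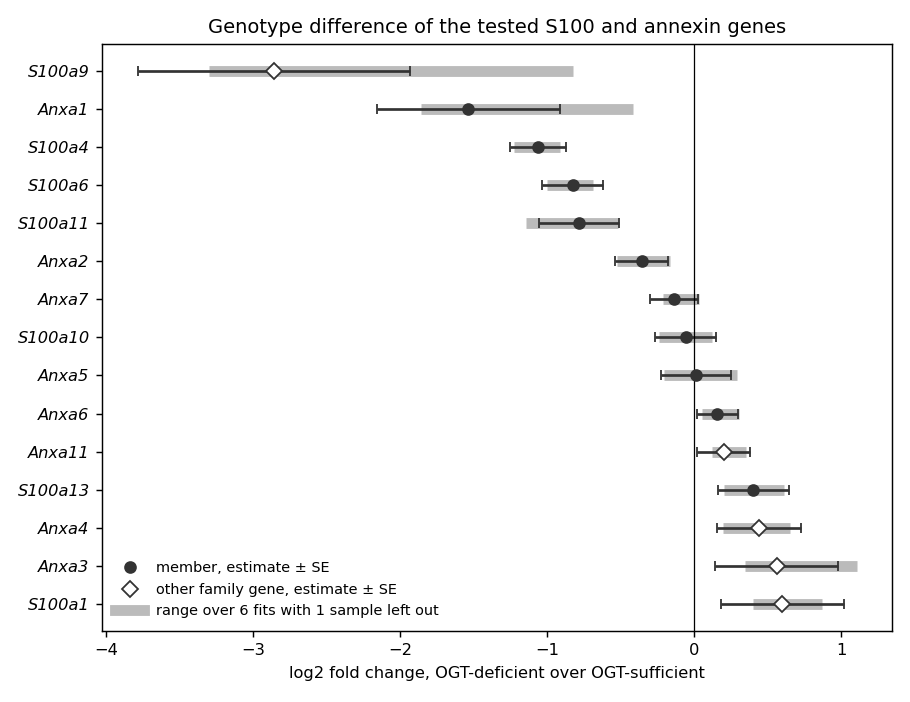
Log2 fold change, OGT-deficient over OGT-sufficient, ± standard error for the 10 members (filled circles) and the 5 other family genes tested (open diamonds), with a grey bar for the range over 6 fits that each leave out 1 sample. The bars are widest for S100a9 and Anxa1, which reach -0.82 and -0.41 without OGT-sufficient replicate 3.

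Of 31 genes whose products bind or respond to S100 proteins and annexins 23 were tested, 1 was lower and 0 were higher at an unadjusted p under 0.05, against 4.01% and 3.09% of all genes. That gene was *Ahnak*, a giant scaffold that binds the S100A10 and annexin A2 complex. Its level was 810 ± 131 CPM in the OGT-sufficient and 384 ± 47.2 CPM in the OGT-deficient samples (SD, n = 3 each). *Ahnak* had a log2 fold change of -1.08 ± 0.15 (SE) with an adjusted p of 0.159 in edgeR's quasi-likelihood test. The quasi-likelihood test called 0 of the 23 at an FDR of 0.1, and DESeq2 and edgeR's exact test each called 1, *Ahnak*. The sorcin gene *Sri* had a log2 fold change of 0.16 ± 0.17 (SE), and *Sugt1*, which binds calcyclin, had 0.24 ± 0.15 (SE). The receptor gene *Ager* had 7.70 ± 5.28 and 4.98 ± 1.43 CPM (SD, n = 3 each).

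Of 44 calcium-binding genes outside these families 40 were tested. At an unadjusted p under 0.05, 1 was lower (*Ppp3cb*, a calcineurin catalytic subunit) and 2 were higher (*Rcn1* and *Sdf4*, EF-hand proteins of the secretory pathway). Over all genes tested, 4.01% were lower and 3.09% higher at that p. *Rcn1* had 33.4 ± 3.32 and 57.3 ± 3.30 CPM (SD, n = 3 each). The log2 fold change was 0.78 ± 0.13 (SE) with an adjusted p of 0.191 in edgeR's quasi-likelihood test. The quasi-likelihood test called 0 of the 40 at an FDR of 0.1, and DESeq2 and edgeR's exact test each called 1 higher, *Rcn1*. The median log2 fold change of the 40 was 0.08.

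Effector and memory T-cell genes, with which *S100a4* is usually found, were listed because of that link. *Ahnak* is also in the partner list. The study named *Klrg1*, *Gzmb* and *Ccr2*, together with the member *S100a4*, as lower from these samples. So the count is not independent evidence of a direction. Of 30 tested, 10 were lower and 1 was higher at an unadjusted p under 0.05, against 4.01% and 3.09% of all genes. The log2 fold change was negative for 19 and positive for 11 of the 30, with a median of -0.13. The gene called higher at that p was the lysosomal protease gene *Ctsd*, which macrophages also express. The quasi-likelihood test called 0 at an FDR of 0.1, DESeq2 5 and the exact test 6, all lower. The nuclear receptor gene *Rora* had 57.7 ± 9.26 and 27.1 ± 3.95 CPM, and the integrin gene *Itgb1* had 421 ± 79.4 and 239 ± 21.1 CPM (SD, n = 3 each). *Rora* had a log2 fold change of -1.09 ± 0.17 and *Itgb1* of -0.82 ± 0.16 (SE).

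Among the members, *S100a4*, *S100a6* and *S100a11* varied together, but within the groups they were not set apart from other members. Over the 6 samples, on the scale of log2(CPM + 1), *S100a4* had a Pearson r of 0.963 with *S100a6* and 0.932 with *S100a11*. These values include the genotype difference that the members were selected on. After subtraction of the group means they were 0.879 and 0.977, and *S100a6* with *S100a11* had 0.771. Other pairs were as high after subtraction: *S100a6* with *Anxa6* had 0.894, *S100a6* with *S100a10* 0.885 and *S100a10* with *Anxa6* 0.970. With *S100a13* the r of *S100a4* was -0.34 over the samples and 0.63 after subtraction, so the pair separated between the groups and not inside them. *Anxa1* and *Anxa6* ran in opposite directions, with an r of -0.80 after subtraction. Of the 45 pairs, 22 had an r over 0.5 after subtraction and 17 were negative, of which 15 include *Anxa1* or *Anxa7*. These are 6 points that share their libraries, and they are not tests.

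Among 8069 tested genes with a mean of at least 10 CPM, the levels of *S100a4* were most like those of *Irf3*, *Rora*, *Mcm3ap*, *Fbxo25* and *Yars*, with a Pearson r of 0.981 to 0.993 over the 6 samples. *S100a6* was at rank 18 and *S100a11* at rank 43 of that order. The likeness is of pattern and not of size: *Irf3* had 38.7 ± 0.561 and 30.1 ± 1.73 CPM, and *Rora* showed the larger difference given above. The levels of *Anxa2* were most like those of *1810030O07Rik*, *Csnk1d*, *H2afx*, *Rpl23* and *Plekho2*, with r between 0.979 and 0.998, and its partner gene *S100a10* was at rank 1387. Each set was picked as the highest r among 8069 genes over only 6 samples, so it is a description and not a test.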

How the data were processed

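RNA of YFP-positive Treg cells from female mice was sequenced in paired ends. The authors trimmed reads with Trimmomatic 0.33 and aligned them with Bowtie2 2.2.4.0. For quantification the methods name Cuffquant and the submitters' processing notes featureCounts and mm10; annotation and strand setting are not given in the sources used here. The authors deposited whole numbers per gene symbol, taken as counts without normalization. The deposited table also holds their own edgeR p-values and fold changes, which were not used.

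Groups follow the sample titles. Counts were analysed with edgeR 4.0.16 in R 4.3.3: TMM scaling, a low-count filter (minimum count 10), the quasi-likelihood test on all 10949 genes that passed, and Benjamini-Hochberg adjustment. A standard error (SE) was derived from the log2 fold change and its F statistic. DESeq2 1.42.0 and edgeR's exact test were alternatives. The procedure was also run on simulated counts, drawn independently and without a library that stands apart. That run therefore cannot show how the test behaves with a library like OGT-sufficient replicate 3, and no result is drawn from it. Total counts were 3375454 to 4103552 per sample, and any 2 replicates differed by more than sampling noise (chi-square over degrees of freedom of 3.49 to 24.2). Exon lengths, positions and overlaps are from GENCODE M21, which held all 10 members; exons of *S100a4* and *Anxa2* overlap a gene model that is not in the table, and *S100a11* has a processed pseudogene. An exact permutation test of 3 samples against 3 cannot go below a two-sided p of 0.1.

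Members and lists were chosen with earlier results of these data known. Named are *Ogt*, the members, the other genes of both families, list and marker genes, up to 8 of a list by lowest p, the neighbours of *S100a4*, and the 5 genes most like *S100a4* and *Anxa2* (at least 10 CPM). The result of 1 further gene list, of resting T-cell genes, is not reported here. The neighbourhood and the within-sample shares and ratios were added after the values were seen.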

Additional observations from a re-analysis of the deposited data

How the results depend on the processing

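The log2 fold changes of *S100a4*, *S100a6*, *S100a11*, *Anxa1* and *Anxa2* were negative, and those of *S100a13* and *Anxa6* positive, in all 15 alternative fits, while those of *S100a10*, *Anxa5* and *Anxa7* changed sign. Of 150 member values under these alternatives 149 stayed within 1 SD of the replicates, and the other was *Anxa1* at -0.41 without OGT-sufficient replicate 3. That number was largely set in advance, so no conclusion is drawn from it. Leaving out 1 of the 3 samples of a group moves its mean by less than 1 SD of that group. Most of the other fits changed only the scaling, the filter or the test on the same libraries.

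At an FDR of 0.1 the members called went from 0 to 1 with DESeq2 and with the macrophage list as a covariate, and to 2 with the exact test of edgeR and with no low-count filter, and the partner and receptor genes from 0 to 1 in each of these 4. Without a filter, other S100 and annexin genes went to 2 at an FDR of 0.1 and to 2 at an unadjusted p under 0.05, and partner genes to 2 at an unadjusted p under 0.05. The cause of these changes was not tested.

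*Ogt*, at a log2 fold change of -1.21 (adjusted p = 0.191 by the quasi-likelihood test of edgeR), was called at that FDR with DESeq2 (-1.19), the exact test (-1.21), the macrophage covariate (-1.15) and no filter (-1.15), and its adjusted p ranged from 1.6e-05 to 0.764.

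With 1 sample left out at a time, which leaves a group with fewer samples, the members at an FDR of 0.1 were 0 in every fit, those at an unadjusted p under 0.05 were between 2 and 4 (2 without OGT-deficient replicate 2) and those without overlap between 3 and 5 (5 without OGT-sufficient replicate 2), and the median log2 fold change of the members was between -0.33 and -0.06 (-0.064 without OGT-sufficient replicate 1). At an unadjusted p under 0.05 the other S100 and annexin genes were between 1 and 2, the partner genes between 1 and 2, the other calcium-binding genes between 1 and 5 (1 without OGT-deficient replicate 2, 2 without replicate 1 of either group, 5 without OGT-sufficient replicate 2) and the effector and memory genes between 7 and 15 (7 without replicate 2 of either group). The other S100 and annexin genes were 2 without OGT-deficient replicate 1 or OGT-sufficient replicate 1 or 2, and the partner genes were 2 without OGT-deficient replicate 3 or OGT-sufficient replicate 2. At an FDR of 0.1 the partner genes were between 0 and 1, with *Ahnak* called without OGT-sufficient replicate 3, the other family genes were 0 in every fit, and the *Ogt* log2 fold change was between -1.31 and -0.94.

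Same-numbered samples were not treated as pairs, since their deviations correlated at -0.281, 0.00726 and -0.118. With a replicate block 0 members passed an FDR of 0.1 and 4 an unadjusted p of 0.05, of which 3 were lower (*S100a4*, *S100a6* and *S100a11*). *Anxa1* was no longer among them and *S100a13* was, as higher. *S100a13* also passed that p as higher with no low-count filter and without OGT-deficient replicate 3, and *Anxa2* as lower with unscaled library sizes, with the macrophage covariate and without OGT-sufficient replicate 3. Under the block the log2 fold change of *S100a4* was -1.07. Counting alone gives a coefficient of variation of up to 28.9% (*Anxa1*) in a group, and this limits what can be seen of the rarer members.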
